A study of Mus musculus with 6 samples.

Results

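Homeostatic microglia genes are the genes by which resting brain macrophages are usually recognised. Of these, 8 were followed here: Cx3cr1, P2ry12, Tmem119, Csf1r, Aif1, Itgam, Trem2 and Tyrobp. They were taken from the arrays by gene name, with every probe that carried that name among the probes that are not controls. This gave 11 probes, of 56605 probes for 37074 gene names on the array. All 8 genes and all 11 probes passed the detection filter, being well above background on each of the 6 arrays. The genes compared below number 26157, each represented by its probe with the highest mean signal.

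The arrays came from 6 primary cultures of cerebral cortex, dissociated from C57/B6 mouse embryos at embryonic day 16 and grown in Neurobasal medium with B27 plus. There were 3 irradiated cultures, which received 3.1 THz radiation daily, 3 hours each time, between days 5 and 9 in vitro, and 3 control cultures. RNA was collected at day 12 in vitro, labelled with Cy3 and hybridised to 1-colour Agilent arrays, 1 array per culture. The labels call these neuron cultures, number them 1 to 3 within a group, and leave unstated what cultures of equal number have in common. Nothing says that the cultures came from separate dissections, so p-values cover no more than the variation among these 6 samples, some of which may be technical.

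Microglia are the resident macrophages of the brain. They arise from yolk sac progenitors, not from the neural lineage, and enter the cortex during embryonic life, so dissociated cortex carries some of them along. They survive through the receptor encoded by Csf1r, sense neurons through Cx3cr1 and released nucleotides through P2ry12, and signal phagocytic cues through Trem2 and its adaptor Tyrobp. On activation, mouse microglia are known to lower P2ry12, Tmem119 and Cx3cr1.

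The 75th percentile of the processed signal ran from 921 to 1291 on the irradiated arrays and from 476 to 1048 on the control arrays. All values below are log2 signal minus this percentile, so 0 is the 75th percentile of an array and 1 unit is a doubling. No spot was saturated, and the 6 arrays lay on 1 slide read in 1 scan. The controls lay in row 1, columns 1 to 3. The irradiated arrays lay in row 1, column 4, and row 2, columns 1 and 2, so group and position cannot be told apart. Spots well above background were 64.9% on control 1 and 69.9% to 74.7% on the other arrays. Control 1 stood apart on the main axis of variation over all genes, which held 54.6% of it, at 114 against -46.9 to 5.03 on the other 5 arrays. Some results are therefore also given without control 1, and this is said where they stand. The other counts, medians and correlations include control 1 and were not checked without it. All 11 listed neuron markers were measured on these arrays, as were all 9 listed astrocyte markers.

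In 7 of the 8 genes the arrays differed more by their number in the labels than by irradiation. Each of these 7 was higher on both arrays numbered 1 than on the other 4 arrays, and Itgam was not. In these bulk cultures, fewer cells of a type and less RNA per cell cannot be told apart. The differences of number 1 from numbers 2 and 3 ran from 1.46 for P2ry12 to 3.36 for Cx3cr1. Between irradiated and control cultures, none of the 8 genes passed the test, and the differences ran from -0.43 for Tmem119 to 0.46 for Aif1.

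**Figure D1:**
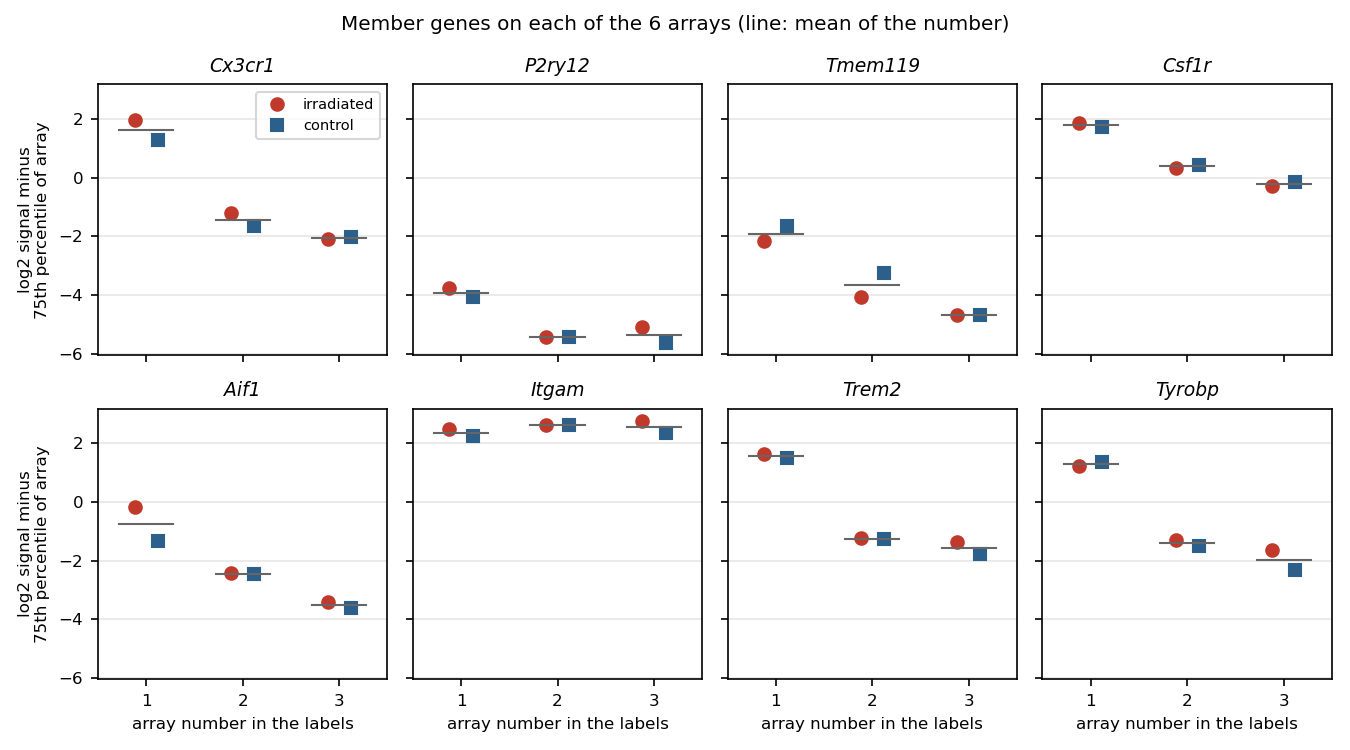
Level of each member gene on each array, as log2 signal minus the array's 75th percentile, against the array number in the labels; circles are irradiated cultures, squares are control cultures, and the line is the mean of the 2 arrays with that number. In every panel but that of Itgam both arrays numbered 1 lie above the other 4, and the largest gap between irradiated and control arrays of the same number is that of Aif1 on number 1, at 1.14.

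Cx3cr1 encodes the receptor for the neuronal chemokine fractalkine. Its brighter probe lies at chr9:119957811-119957870 and the other at chr9:119959018-119959077, both on build mm9 as the files give it and both read on the minus strand. No annotation of exons in that build was used. The first 30 of the 60 bases of each probe show that they sample different stretches of the transcript, and they are printed because both gave the same order of arrays.
Cx3cr1 brighter probe: cgtgcctagagtgtgtctatcccacttgta
Cx3cr1 dimmer probe: caagaatgtcttcatgcattcactgactcc

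On the brighter probe, Cx3cr1 measured 1.95 on irradiated 1 and 1.29 on control 1. It measured -1.20 on irradiated 2 and -1.64 on control 2, and -2.08 on irradiated 3 and -2.02 on control 3. The processed signal behind these values was 4725, 560 and 218 on irradiated arrays 1 to 3, and 1166, 220 and 258 on control arrays 1 to 3. The lower array numbered 1 stood 2.50 above the highest of the other 4, and the irradiated and control groups overlapped. The difference of number 1 from numbers 2 and 3 was 3.36 (95% interval 2.78 to 3.93), or 10.3-fold, with an adjusted p of 0.017 in limma with group as a covariate. By size of this difference, Cx3cr1 ranked 35 among the 26157 genes. The dimmer probe gave 3.34 (adjusted p 0.037 over all 40552 kept probes), and the probes' values had a correlation of 0.993 over the 6 arrays.

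Csf1r encodes the receptor for the growth factors CSF1 and IL-34, on which microglia depend. Its brighter probe, at chr18:61290725-61290784, measured 1.84 on irradiated 1 and 1.72 on control 1, 0.32 on irradiated 2 and 0.44 on control 2, and -0.29 on irradiated 3 and -0.15 on control 3. The 3 numbers did not overlap, and number 1 was 1.70 higher than numbers 2 and 3 (95% interval 1.24 to 2.16, limma adjusted p 0.025). The other probe, 12.1 kb away at chr18:61278661-61278720, did not follow this order. It ranged over only 0.58 units on the 6 arrays, against 2.13 units for the brighter probe, and its difference for number 1 was 0.19 (adjusted p 0.653 over all kept probes). With the mean of both probes, Csf1r differed by 0.94 and was no longer called (limma adjusted p 0.066).

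P2ry12 encodes the ADP receptor that steers microglial processes to sites of injury. It measured -3.77 on irradiated 1 and -4.07 on control 1, -5.42 on irradiated 2 and -5.41 on control 2, and -5.10 on irradiated 3 and -5.61 on control 3. Its processed signals were low, from 16.2 to 89.9 intensity units, though called well above background on all 6 arrays. Number 1 was 1.46 higher than the other numbers (95% interval 0.95 to 1.98, limma adjusted p 0.038). With normexp background correction this fell to 0.75 and was not called (adjusted p 0.240).

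Trem2 encodes a lipid-sensing receptor of myeloid cells, and Tyrobp encodes DAP12, the adaptor through which it signals. Trem2, read at chr17:48491537-48491596, measured 1.64 on irradiated 1 and 1.48 on control 1, -1.23 on irradiated 2 and -1.28 on control 2, and -1.35 on irradiated 3 and -1.77 on control 3. Tyrobp measured 1.22 on irradiated 1 and 1.36 on control 1, -1.29 on irradiated 2 and -1.52 on control 2, and -1.65 on irradiated 3 and -2.33 on control 3. The lower array numbered 1 stood 2.71 above the highest of the other 4 for Trem2, and 2.50 above it for Tyrobp. Number 1 was 2.96 higher for Trem2 (95% interval 2.49 to 3.44, limma adjusted p 0.017), or 7.80-fold. It was 2.98 higher for Tyrobp (2.38 to 3.59, limma adjusted p 0.019), or 7.92-fold. Receptor and adaptor had the highest correlation of any pair of members over the 6 arrays, at 0.993.

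Since 7 members varied together, the 250 bases before the start of the gene were examined for the core sequence bound by PU.1, the myeloid transcription factor encoded by Spi1. RefSeq promoters on build GRCm38.p6 were at hand for 5 of the 8 members. The motif searched was GAGGAA on both strands, which reads TTCCTC on the other strand. It was present in 3 of these 5 windows (Aif1, Itgam and Trem2), and in 23.3% of all 32851 promoter windows. The windows of Cx3cr1 and P2ry12 did not hold it. The part of PU.1 in the members' difference was not tested. The windows of Trem2 (chr17:48346151-48346400, plus strand) and Cx3cr1 (chr9:120068297-120068546, minus strand) are shown as the members with the smallest p, with the motif in capitals.
Trem2 promoter: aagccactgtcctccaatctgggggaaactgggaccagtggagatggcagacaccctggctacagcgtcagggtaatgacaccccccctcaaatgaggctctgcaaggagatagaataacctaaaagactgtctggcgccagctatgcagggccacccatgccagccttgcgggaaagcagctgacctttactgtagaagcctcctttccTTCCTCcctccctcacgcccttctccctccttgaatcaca
Cx3cr1 promoter: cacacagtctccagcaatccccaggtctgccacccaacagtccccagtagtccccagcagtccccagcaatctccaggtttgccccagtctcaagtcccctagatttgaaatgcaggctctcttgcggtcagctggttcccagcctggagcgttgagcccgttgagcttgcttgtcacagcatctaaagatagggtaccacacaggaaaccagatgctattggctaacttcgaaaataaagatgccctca

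Tmem119 encodes a membrane protein used to tell microglia from other macrophages. It measured -2.15 on irradiated 1 and -1.65 on control 1, -4.05 on irradiated 2 and -3.25 on control 2, and -4.67 on both arrays numbered 3. Each irradiated value lay below the control of the same number, by 0.50, 0.80 and 0.0013 units, and Tmem119 was the only member lower in irradiated cultures in all 3 numbers. Over all genes, 20.9% were lower in all 3 numbers. Number 1 was 2.26 higher than the others (95% interval 1.66 to 2.86, limma adjusted p 0.024). With normexp background correction this fell to 1.51 and was not called (limma adjusted p 0.052).

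Aif1 encodes IBA1, the actin-binding protein that is the common stain for microglia. It measured -0.18 on irradiated 1 and -1.32 on control 1, -2.43 on irradiated 2 and -2.46 on control 2, and -3.40 on irradiated 3 and -3.60 on control 3. The largest gap between irradiated and control arrays of the same number among the 8 genes was that of Aif1 on number 1, at 1.14. Number 1 was 2.22 higher than the others (95% interval 1.48 to 2.97, limma adjusted p 0.036).

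Itgam encodes CD11b, the alpha chain of complement receptor 3, and was the exception among the members. Its brighter probe, at chr7:135261755-135261814, measured 2.46 on irradiated 1 and 2.24 on control 1, 2.60 on both arrays numbered 2, and 2.75 on irradiated 3 and 2.35 on control 3. The arrays numbered 1 lay within or below the range of the others, and the difference of number 1 was -0.23 (95% interval -0.71 to 0.25, limma adjusted p 0.514). Its correlation with the other 7 members over the 6 arrays ran from -0.58 to -0.37, where the 21 pairs among those 7 ran from 0.85 to 0.993. Without control 1 the ranges were -0.32 to -0.12 for Itgam and 0.80 to 0.99 for the 21 pairs. These correlations describe 6 arrays that share a slide.

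The dimmer Itgam probe, 49.6 kb away at chr7:135212140-135212199, did not follow the array number either, with a difference of 0.20 (adjusted p 0.729 over all kept probes). Its values lay between -5.57 and -4.71 on the 6 arrays, with processed signals of 14.6 to 44.2 units. The sequences of the probes are shown because they differ in kind. Capitals mark a run of CA repeated over 20 bases, and the first 30 of the 60 bases are given.
Itgam brighter probe: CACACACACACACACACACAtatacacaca
Itgam dimmer probe: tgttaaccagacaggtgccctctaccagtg

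Probes with a CA or TG repeat of at least 20 bases numbered 80 on the array, and 79 of them passed the detection filter, against 71.6% of all probes. The median level of the 79 was 5.35, against -2.16 over all kept probes. Their median difference for number 1 was 0.05, against -0.07 over all kept probes. No other member probe holds such a repeat. The part of the repeat in the Itgam signal was not tested. Itgb2, which encodes the beta chain that pairs with CD11b, was 1.33 higher on number 1 (standard error 0.18, limma adjusted p 0.037).

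**Figure D2:**
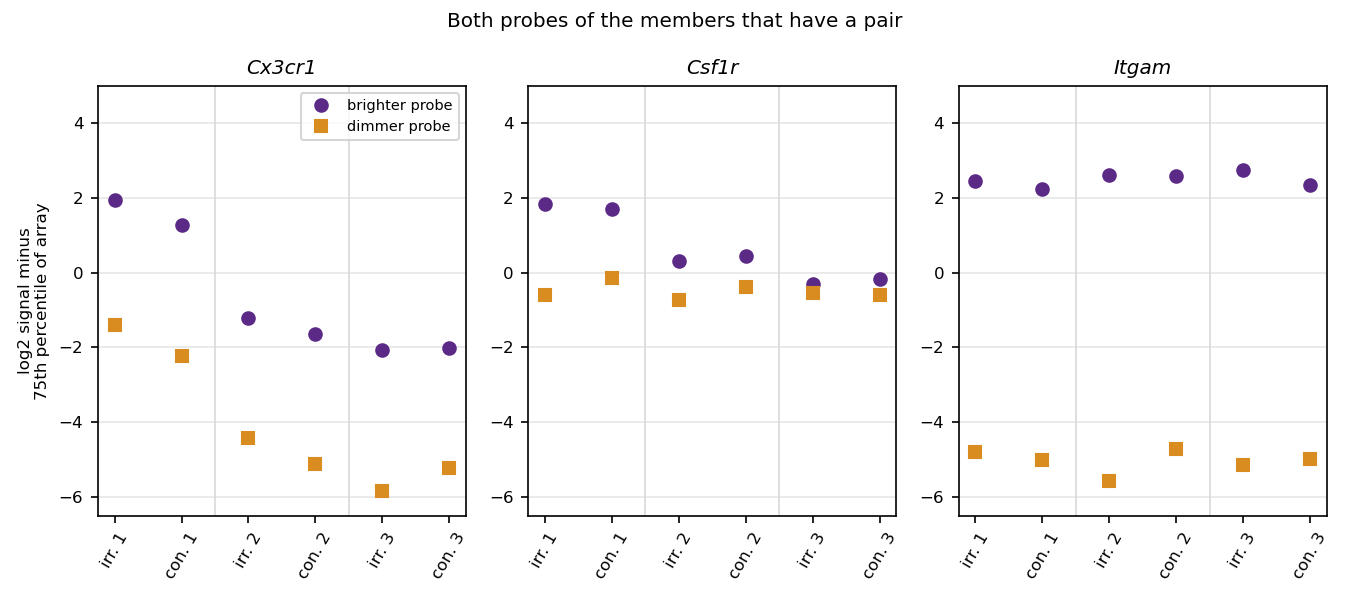
Both probes of Cx3cr1, Csf1r and Itgam on each array, as log2 signal minus the array's 75th percentile; circles are the brighter and squares the dimmer probe, and vertical lines separate the array numbers. Both probes of Cx3cr1 are highest on the arrays numbered 1, of Csf1r only the brighter probe is highest on both of them, and of Itgam neither probe is highest there.

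Over the 8 members, 7 passed an adjusted p of 0.05 for number 1 against numbers 2 and 3, all higher. Of the 26157 genes, 3.68% passed and 2.38% were higher. The members' median difference was 2.24, against -0.04 over all genes. Both arrays numbered 1 lay above the other 4 for 7 members and for 13.2% of all genes. At an unadjusted p under 0.05 there were likewise 7 members, all higher, where 21.8% of all genes passed and 10.2% were higher. The number of members past the adjusted threshold depended on which arrays were used. Leaving out control 2 gave 5, where 1.29% of all genes passed, and leaving out irradiated 2 gave 5, where 1.79% did. Without control 1 or without irradiated 1, number 1 is a single array, so only differences are given. The members' median difference was then 2.45 and 2.01. Leaving out control 3 gave 0, with a smallest adjusted p among members of 0.078, and leaving out irradiated 3 gave 0, with 0.068; no gene of the array passed in those fits. With no filter on dim probes the number was 2, where 0.13% of all genes passed, and with normexp correction 5, where 1.45% did. With each probe as its own feature it was 5, where 1.17% of probes passed. With the mean of a gene's probes it was 6, where 3.41% of genes passed. Without control 1 the differences of the 7 genes ran from 1.49 to 3.59, and they stayed above 0 in each setting run.

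Between numbers 2 and 3, 7 of the 8 members were higher on number 2, but none passed the adjusted threshold in limma, and 0% of all genes did. At an unadjusted p under 0.05 there were 3 members, against 3.9% of all genes. Tmem119 differed by 1.02 (95% interval 0.33 to 1.71), Aif1 by 1.06 (0.20 to 1.92) and Csf1r by 0.60 (0.07 to 1.14). Cx3cr1 differed by 0.63 (-0.03 to 1.29), Tyrobp by 0.59 (-0.11 to 1.29) and Trem2 by 0.30 (-0.25 to 0.86). P2ry12 differed by -0.06 (-0.65 to 0.54). The order number 1 over 2 over 3, with no overlap, held for 6 members and for 4.39% of all genes. Both arrays numbered 3 lay below the other 4 for 6 members and for 7.65% of all genes.

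Whether exposure went with a change in these genes was asked by setting the irradiated against the control cultures. No member passed an adjusted p of 0.05 in limma, where 0% of all genes did, and no member passed an unadjusted p of 0.05, where 8.25% did and 2.74% were higher. For 6 members the difference was above 0, and the median over the 8 was 0.23, against -0.10 over all genes. Both turned on single arrays. Without control 1, 8 members lay above 0 with a median of 0.89, without irradiated 2 there were 7 with 0.61, and without irradiated 3 there were 8 with 0.58. Without irradiated 1 there was 1 member above 0 and the median was -0.64, without control 3 there was 1 with -0.34, and without control 2 there were 3 with -0.08. With both arrays numbered 1 left out, 6 members lay above 0, with a median of 0.20. Cx3cr1 averaged -0.45 ± 2.12 in irradiated and -0.79 ± 1.81 in control cultures (SD, n = 3 each). The difference was 0.35 (95% interval -2.51 to 3.20). Trem2 averaged -0.32 ± 1.69 in irradiated and -0.52 ± 1.75 in control cultures, and the difference was 0.21 (-2.29 to 2.70). Itgam gave 0.21 (-0.27 to 0.68). For no member did the 3 irradiated values lie all above or all below the controls, which held for 13.6% of all genes, and for 4.42% with the irradiated values above.

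With the number as a replicate block the intervals were narrower, since the number takes up the spread between the pairs. The interval became -0.19 to 0.89 for Cx3cr1, -0.24 to 0.66 for Trem2 and -0.31 to 0.83 for Tyrobp (difference 0.26). It became -0.48 to 0.39 for Csf1r (difference -0.04), -0.21 to 0.75 for P2ry12 (0.27), -0.25 to 1.16 for Aif1 (0.46) and -1.0 to 0.13 for Tmem119 (-0.43). No member passed an unadjusted p of 0.05 in this fit, where 8.43% of all genes did. Within numbers, the members' median difference of irradiated from control was 0.19 for number 1, 0.02 for number 2 and 0.30 for number 3, against medians over all genes of -0.16, -0.16 and 0.01. Aif1, Itgam and Trem2 were higher in irradiated cultures within each number, as were 10.5% of all genes.

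**Figure D3:**
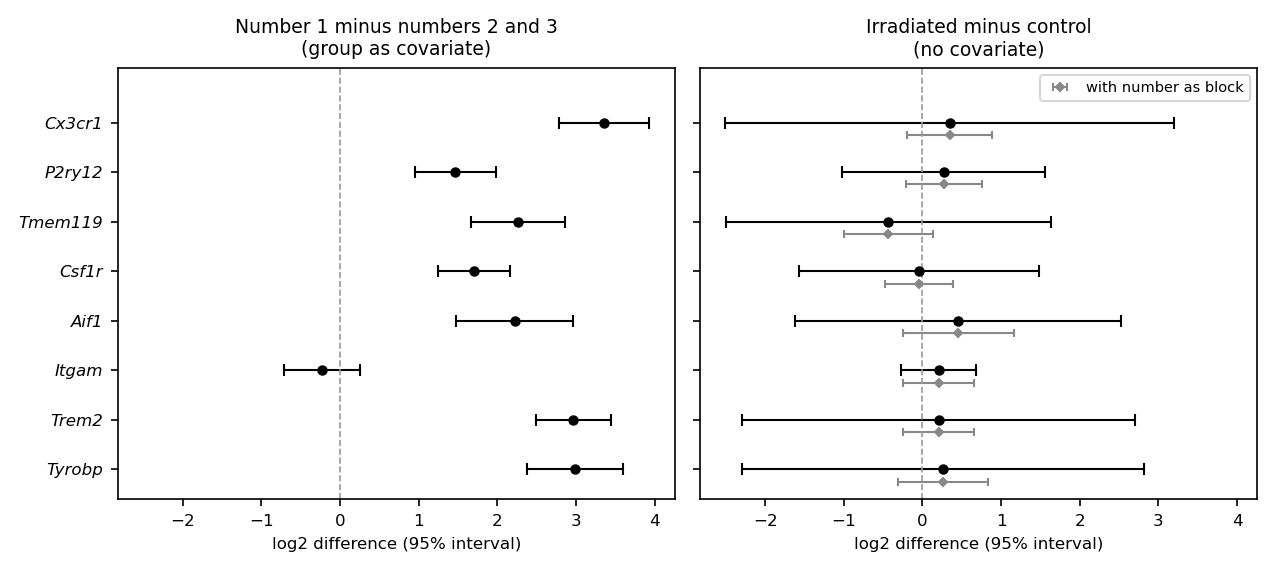
Differences of the 8 member genes on the log2 scale with 95% intervals from limma, for number 1 minus numbers 2 and 3 on the left and irradiated minus control on the right, where grey diamonds add the number as a block. On the left 7 intervals lie above 0 and that of Itgam spans it, and on the right every interval spans 0.

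Genes that work with the members were described from lists, also by number 1 against numbers 2 and 3. Among 14 kept genes of other homeostatic microglia markers, 5 were higher and 0 lower at the adjusted threshold in limma, and the median difference was 0.63. Fcrls, a microglial Fc receptor-like gene, differed by 2.38 (standard error 0.21) and P2ry6, the UDP receptor, by 1.81 (0.18). Selplg and Gpr84 were also among those that were higher, and were well above background on only 4 and 5 arrays. Of the 14 genes, 12 lay above 0 and 2 below it, Siglech at -0.18 and Tgfbr1 at -0.31. Sall1 differed by 0.55 and Olfml3 by 0.41, and neither passed (limma adjusted p 0.243 and 0.279). The list's remaining genes P2ry13 and Gpr34 were well above background only on the 2 arrays numbered 1 and so failed the filter of 3 arrays. Of all 1421 probes well above background on exactly 2 arrays, 6.90% were so on this pair.

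The next list held ligands of member receptors and also the 3 TGF-beta genes, whose receptors are not among the members. None of these 8 genes passed the adjusted threshold in limma, and 3 passed an unadjusted p of 0.05. These were Tgfb1, which differed by 2.18 (standard error 0.36), Apoe, by 0.98 (0.31), and Clu, by 0.91 (0.25). Tgfb1 was well above background on only 3 arrays. ApoE and clusterin are known to bind TREM2. Cx3cl1, the fractalkine that binds CX3CR1, measured 5.38, 5.61 and 5.75 on irradiated arrays 1 to 3 and 5.78, 5.82 and 5.81 on control arrays 1 to 3. It differed by -0.17 for number 1, where its receptor gene differed by 3.36. Il34 and Csf1, the ligands of CSF1R, differed by 0.39 (standard error 0.25) and 0.42 (0.17).

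Among 9 kept genes of signalling partners, 4 were higher and 0 lower, among them Vav1, a guanine nucleotide exchange factor, by 3.03, the phospholipase gene Plcg2 by 1.69, and Itgb2. Syk, the kinase recruited by DAP12, differed by 1.14 and did not pass (limma adjusted p 0.070). Of 7 kept myeloid transcription factors 2 were higher, Irf8 by 2.21 and Runx1 by 2.35. Spi1 was well above background on irradiated 1 only. Of 7 genes shared by leukocytes 4 were higher (Laptm5, Lcp1, Cd52 and Cd53), with a median of 2.56. Cd53 was well above background on 3 arrays, the fewest that the filter allows. Ptprc, which encodes CD45, differed by -0.39 and did not pass (limma adjusted p 0.445).

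Of 12 kept genes of disease-associated microglia, a state described in mouse models of neurodegeneration, 7 were higher on number 1 and 1 was lower, with a median difference of 1.53. Spp1, which encodes osteopontin, differed by 2.51 and Gpnmb by 2.40, while Lpl, the lipoprotein lipase gene, was lower by -1.38. Of 10 genes of complement C1q and phagocyte lysosomes, 8 were higher, with a median of 3.03, among them C1qa at 3.42 and Ctss, the cathepsin S gene, at 3.31. Fcgr2b, also among the 8, was well above background on only 4 arrays. For all 10, both arrays numbered 1 lay above the other 4.

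Markers of other cell types moved with the array number too. Border-associated macrophages, which line the brain's surfaces and share many microglial genes, had 4 of 5 kept markers higher on number 1, with a median difference of 4.32. Pf4 differed by 4.35 and Stab1 by 4.32, while Lyve1 differed by 0.02. F13a1, also among the 4, was well above background on only 3 arrays. The log2 of the summed signal of the 5 kept markers was 2.17 to 2.44 on number 1 and -1.09 to -0.47 on the other arrays. This value, called the summed level below, leans on the brightest genes of a list. Mrc1 was well above background only on the arrays numbered 1, and Cd163 on no array. Monocyte and neutrophil genes were mostly undetected, as 6 of 8, Ccr2 and S100a8 among them, were not well above background on any array. For lymphocytes 0 of 7 kept markers passed in limma, and none had an unadjusted p under 0.05.

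Of 9 astrocyte markers 3 were higher on number 1 (Aldh1l1, Gfap and Aqp4), with a median of 0.98. The summed level of the 9 markers was 7.84 to 8.30 on number 1 and 6.80 to 7.36 on the others. Of 11 oligodendrocyte lineage markers 3 were higher, Mobp and Mag among them, with a median of 0.48. In this list 8 genes lay above 0 and 3 below it, Pdgfra at -0.51, Olig1 at -0.35 and Olig2 at -0.14. Mobp was well above background on only 4 arrays. The summed level of the 11 markers was 6.79 to 6.90 on number 1 and 5.72 to 6.45 on the others. Of 7 cell division genes 4 were higher, with a median of 1.16. Of 5 kept endothelial and pericyte genes 1 was higher, and of 6 meningeal fibroblast genes 1 was higher and 1 lower. Of 11 neuron markers 0 passed in limma and 5 had an unadjusted p under 0.05, where 21.8% of all genes did. The 5 were Neurod2 at -1.01, Neurod6 at -0.92, Stmn2 at -0.88, Map2 at -0.49 and Gad1 at 0.47. Of the 11 neuron markers, 8 lay below 0 and 3 above it, with a median of -0.28. The summed level was 7.74 to 8.17 on number 1 and 7.97 to 8.32 on the others. The neuron marker Snap25 was read by a probe with a CA or TG repeat of at least 20 bases as well. The part of these cell types in the members' difference was not tested.

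The counts in these lists also depended on single arrays. Without control 1, number 1 is a single array, so only the median differences of the lists are given. They were 0.83 for other homeostatic markers, 0.22 for ligands, 1.33 for signalling partners, -0.04 for transcription factors and 2.65 for leukocyte genes. They were 1.60 for disease-associated microglia, 3.05 for complement and lysosome and 4.19 for border-associated macrophages. In the other cell types they were 0.79 for astrocytes, 0.39 for oligodendrocytes, 1.11 for cell division and 1.40 for endothelium and pericytes. They were -0.18 for fibroblasts, -0.05 for lymphocytes and -0.29 for neurons. With all 6 arrays the medians were 3.03 for complement and lysosome, 2.56 for leukocyte genes and 4.32 for border-associated macrophages. They were 0.63 for other homeostatic markers, 1.53 for disease-associated microglia, 0.98 for astrocytes and 1.16 for cell division. Without control 3 or without irradiated 3 no gene of any list was called, as for the whole array. Without control 2 or irradiated 2, the counts of genes higher on number 1 at the adjusted threshold in limma were 8 each for complement and lysosome. They were 4 each for border-associated macrophages, 4 each for leukocyte genes and 1 each for astrocytes. In the same fits they were 3 and 4 for other homeostatic markers, 1 and 0 for ligands, 2 and 1 for signalling partners, and 0 each for cell division. In these fits the complement, leukocyte and border-associated macrophage counts were as high as with all 6 arrays. Those of astrocyte and cell division genes were lower. So were those of other homeostatic markers, signalling partners and disease-associated microglia, the last with 5 in each fit against 7 with all 6 arrays.

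**Figure D4:**
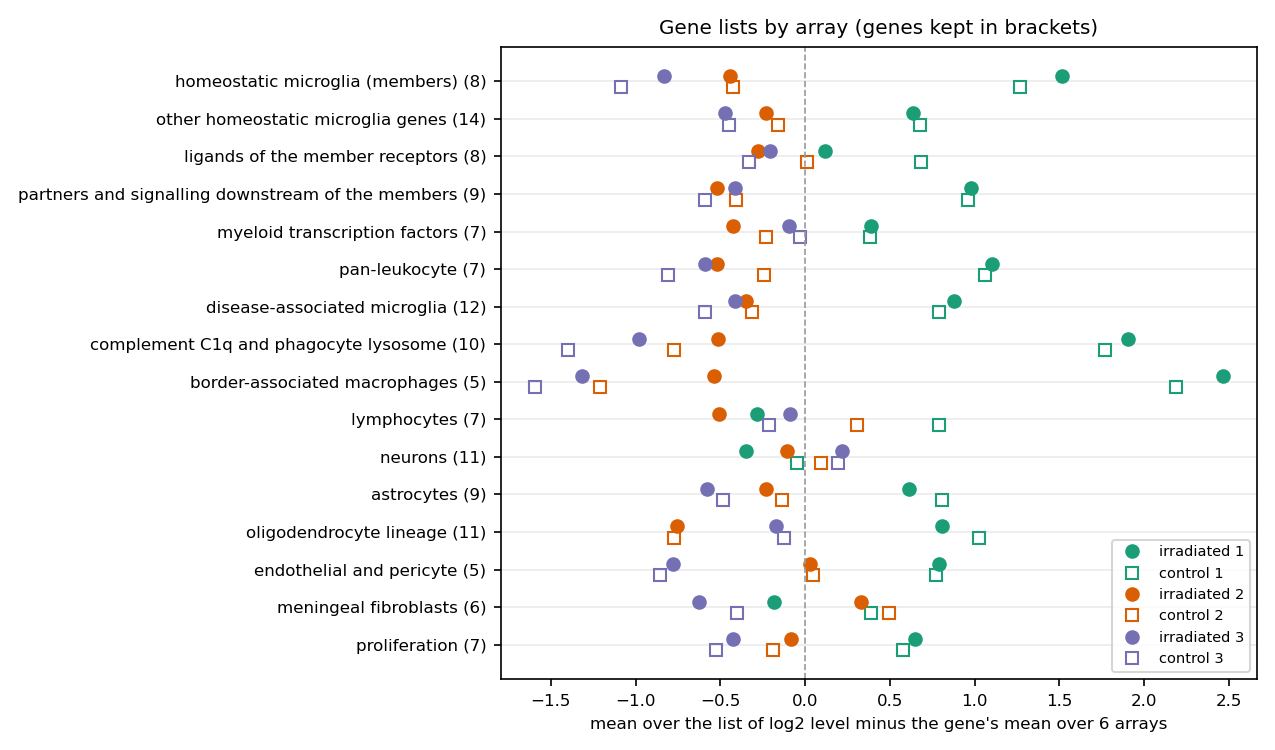
Mean over each gene list of the log2 level minus the gene's mean over the 6 arrays, for lists with at least 5 kept genes; filled circles are irradiated and open squares control arrays, coloured by number. Both arrays numbered 1 lie above the other 4 for the microglia, complement and border-associated macrophage lists and also for the ligand, signalling partner, transcription factor, leukocyte, astrocyte, oligodendrocyte, endothelial and cell division lists, but not for the neuron, lymphocyte and fibroblast lists.

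The genes most like the members were sought by correlation with the members' mean profile over the 6 arrays, among named genes that ranged over at least 1 unit. The 10 highest were Pls1, Spaca6, Anxa1, Cyp2d12, Clmn, Csf2rb2, Top2a, Vav1, Hcls1 and Tbxas1, with correlations from 0.996 to 0.999, and from 0.994 to 0.998 without control 1. The values without control 1 are for the same 10 genes, which were chosen with all 6 arrays. All 10 were higher on number 1, by 1.09 for Pls1 to 3.03 for Vav1. The profile was itself highest on the arrays numbered 1, so the choice built in this direction. Of 6129 eligible genes, 75.1% correlated at least as well as Itgam. The lowest of the other 7 members was Tmem119, at 0.948. Of 12160 genes outside the members that ranged over at least 1 unit, named or not, 4.31% correlated at least as well as Tmem119. Members enter the profile themselves, so their own correlation with it is partly built in. Against the mean of the other 7 members alone, the correlation was -0.52 for Itgam and from 0.93 for Tmem119 to 0.987 for Trem2 among the rest. These values rest on 3 numbers of 2 arrays each and are a description.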

How the data were processed

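Per the file headers and the submitters' processing notes, the authors deposited spot intensity values written by Agilent Feature Extraction 10.7.1.1, as processed signals. The authors also deposited a log2 table whose 6 columns share a median of 5.90 and which ranks probes as the scanner signals do (rank correlation of at least 0.997); its normalisation, scale and centring are unstated, and it served as an alternative. Here, log2 processed signal minus each array's 75th percentile was used, without outlier spots and with spots of a probe averaged. Probes well above background on at least 3 of 6 arrays were kept (40552 of 56605), and the brightest stood for each gene name of the files. Limma 3.58.1 in R 4.3.3 was fitted over all 26157 genes, with Benjamini-Hochberg adjustment over them: irradiated minus control without covariates, and number contrasts with group as covariate. Depth is unknown for arrays; their number limits precision.

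Same-numbered arrays deviated together from their group means (correlations 0.53, 0.42 and 0.22 for numbers 1 to 3), so numbers were treated as pairing samples. Irradiated 2 also correlated with control 3 (0.33), above the pair of number 3. Members, lists and the number comparison were chosen with earlier results of these data known. List genes named had among the 4 smallest p of their list for number 1, or were called there and not in another comparison. Syk, Lyve1, Cx3cl1, Il34, Ptprc, Snap25, Siglech, Tgfbr1, Sall1, Olfml3 and genes failing the filter were chosen after their values were seen. So were Map2, Pdgfra, Olig1 and Olig2. Alternatives were normexp or quantile normalisation, the deposited table, no filter, other uses of a gene's probes, the number as a block, and each array left out; list counts and correlations without single arrays were added after seeing the data. Single values of some list genes are not reported here.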

Additional observations from a re-analysis of the deposited data

How the results depend on the processing

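For number 1 against numbers 2 and 3, the 8 members kept their direction in each setting run. The 962 genes called became 379 with normexp correction, 47 without the filter on dim probes (2 members called, where 7 were as reported) and 474 with each probe as its own feature. With 1 array left out it ranged from 0 to 1931 genes and from 0 to 7 members. For number 2 against 3 the count was 0, 1 with the deposited log2 table, and 3 with either array numbered 1 left out. In that comparison, leaving out an array numbered 2 or 3 leaves a single array with that number, so those counts are not given. For irradiated minus control it was 0, and 2 with quantile normalisation or the deposited table. With the replicate block it was 0, with 2206 genes at an unadjusted p under 0.05, and the block changed no call; joined with quantile normalisation, a setting chosen after seeing the data, it also gave 0. In irradiated minus control, Csf1r turned to 0.014 with quantile normalisation, with or without the block, and with the deposited table, P2ry12 to -0.31 with normexp and Itgam to -0.029 with the mean of its probes. With 1 array left out it ran from -0.85 to 1.39 for Cx3cr1, -0.23 to 0.75 for P2ry12, -1.17 to 0.33 for Tmem119, -0.65 to 0.48 for Csf1r, -0.45 to 1.15 for Aif1, -0.77 to 1.21 for Trem2 and -0.63 to 1.35 for Tyrobp. Number 2 minus 3 then ran from -0.27 to 0.15 for P2ry12 and from -0.10 to 0.21 for Itgam. Fits with 1 array fewer have fewer samples; other causes of these changes were not tested. The number of arrays, 3 in a group, limits the precision.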
